A study of Mus musculus with 94 samples.

Results

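Fat cells take up fatty acids that are released from lipoproteins in the capillaries, and 8 genes of this route were followed in mouse white fat during obesity and its regression: Lpl, Gpihbp1, Lmf1, Angptl4, Cd36, Slc27a1, Fabp4 and Acsl1. They were listed by name for their roles in lipoprotein lipolysis, fatty acid uptake and fatty acid binding. No rule on their values was used, though earlier results of these data were known. All 8 were found among the 20411 gene symbols counted in each tissue. Poly(A) RNA of 47 male C57BL/6JBomTac mice was sequenced in a pair of white fat depots per mouse, the epididymal (eWAT) and the inguinal one (iWAT). Obese mice (n = 5, 28 weeks of age) had eaten the high-fat diet D12492 (HFD) for 18 weeks from 10 weeks of age. Regression mice had eaten it for the same 18 weeks and then the low-fat diet D12450J (LFD) for 2, 6 or 12 weeks (n = 6 each, 30, 34 and 40 weeks of age). Each time had its own 6 lean mice of the same age, kept on the LFD throughout. All were of 1 strain and were housed 3 to an enclosure unless they had to be separated. The sources used here do not say which mice shared an enclosure.

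Lipoprotein lipase, made by adipocytes and muscle cells, cuts triglycerides in circulating chylomicrons and VLDL into fatty acids. It is folded in the endoplasmic reticulum with the help of LMF1, carried across the capillary wall and held on the luminal surface by the endothelial protein GPIHBP1, and inactivated by ANGPTL4, which fat makes in fasting. The released fatty acids enter cells through CD36 and the transport protein FATP1 (Slc27a1), are bound in the cytosol by FABP4 and are activated to acyl-CoA by ACSL1, after which adipocytes store them as triglyceride.

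Total counts ran from 1318940 to 25866600 per library in eWAT and from 6268460 to 34328000 in iWAT. The shallowest library was eWAT regression replicate 2 at 2 weeks, and the next had 5929260 counts. Levels are CPM, the counts of a gene scaled to a common library total, with TMM factors that allow for differences in composition. The adipocyte markers Adipoq, Plin1, Cidec, Lipe, Pnpla2, Cfd and Retn were above 0 in all 94 libraries. Single eWAT libraries held RNA of the efferent duct or vas deferens, and iWAT libraries held varied amounts of skeletal muscle and lymph node B cell RNA: the summed muscle markers ran from 6.48 to 33234 CPM over the iWAT libraries. 6 eWAT and 14 iWAT libraries stood more than 3 log2 units above the depot's median in at least 1 of these signals. The fits within each depot were repeated without them, and the fits that compare the depots were not. Later mentions of libraries that held other-tissue, muscle or lymph node RNA mean these libraries. Libraries below that cutoff were kept and could still hold such RNA. The mouse numbers in the labels form 2 series, a higher one (replicates 1 to 3) and a lower one (replicates 4 to 6). Each comparison was also fitted within each series.

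Between 0 and 3 of the 8 genes passed the test in each comparison with lean mice, and Slc27a1 in obese iWAT was the farthest from lean among those that did. The share of all genes called stands beside each count, and whether the counts differ from these shares was not tested. In each comparison a gene was called at an adjusted p under 0.05 over all genes tested. In the eWAT of obese mice 1 of 8 was called, Fabp4, which was lower; 23.4% of the 14323 genes tested were called. After 2 weeks of regression 2 of 8 were called in eWAT, Lpl lower and Cd36 higher, where 35.7% of genes were called. After 6 and 12 weeks 0 of 8 were called in eWAT by edgeR, against 7.58% and 15.3% of all genes; at an unadjusted p under 0.05 there were 2 and 4, and DESeq2 called 0 and 1. In the iWAT of obese mice 3 of 8 were called, Slc27a1, Fabp4 and Acsl1, all lower, where 30.2% of the 13899 genes tested were called. After 2 weeks 1 of 8 was called in iWAT, Gpihbp1, which was higher, against 18.8% of genes. After 6 and 12 weeks edgeR called 0 of 8 in iWAT, with 1.04% and 0.0288% of all genes called, 0 and 2 of the 8 at an unadjusted p under 0.05, and 0 and 1 called by DESeq2. The median log2 fold change of the 8 genes lay between -0.33 and 0.06 over the 8 comparisons. Because the tissue was sampled in bulk, fewer cells of a type and less RNA per cell cannot be told apart in any of these values.

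The difference from lean mice could also change with time. From obesity to 2, 6 and 12 weeks, 0 of 8 genes changed that difference in eWAT (5.82%, 1.21% and 2.32% of all genes were called; 3, 0 and 1 of the 8 had an unadjusted p under 0.05). In iWAT 0 of 8 changed to 2 weeks (4.00% of genes; 3 of the 8 unadjusted) and 0 to 6 weeks (1.38%; 2 unadjusted), and 1 of 8, Angptl4, changed to 12 weeks (4.85%). Between lean mice at 12 weeks and lean mice at the obesity time, 0 of 8 were called in eWAT (0.105% of genes; 4 of the 8 unadjusted) and 0 of 8 in iWAT (0.496%; 1 unadjusted). The response of eWAT minus that of iWAT, from 1 fit to the 94 libraries that blocks on the mouse, was called for 0 of 8 genes in obesity (1.32% of 14749 genes), at 2 weeks (8.42%), at 6 weeks (0.597%) and at 12 weeks (0.0542%); unadjusted, 1, 1, 1 and 1 of the 8 were under 0.05. So no gene of the 8 was shown to respond differently in the depots, including those called in 1 depot and not in the other.

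**Figure D1:**
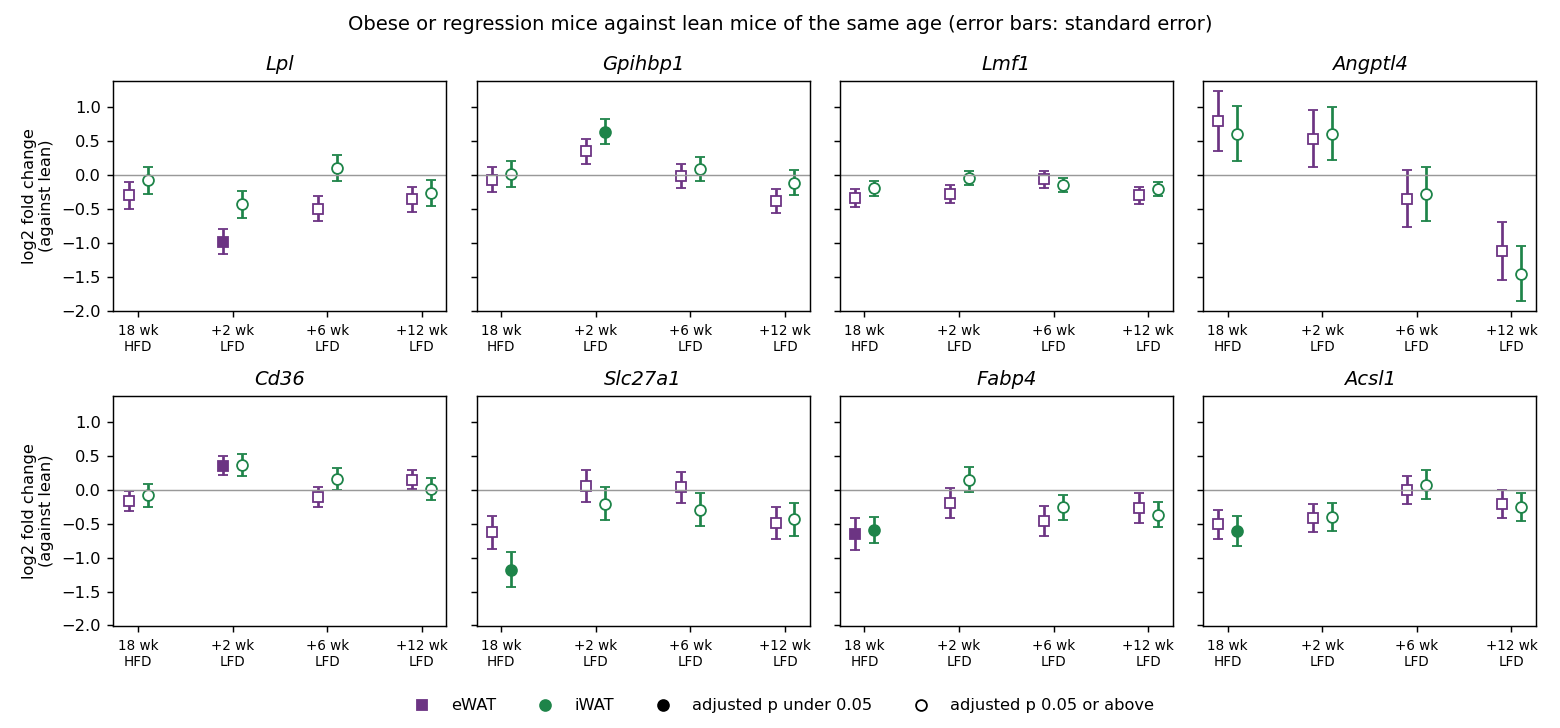
Log2 fold change of each gene in obese or regression mice against lean mice of the same age (vertical axis) at 4 times (horizontal axis), for eWAT (squares) and iWAT (circles) with standard errors of the fit; filled symbols have an adjusted p under 0.05. Lpl in eWAT at 2 weeks and Slc27a1 in iWAT in obesity lie farthest below 0 among the filled symbols, and Angptl4, with the widest errors, lies above 0 in obesity and at 2 weeks and below 0 at 6 and 12 weeks in both depots.

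In lean mice the 8 genes spanned a wide range of levels. Per kilobase of the principal transcript of GENCODE M21, Fabp4 and Lpl led: Fabp4 had 4330.5 ± 1113 CPM per kb in eWAT and 4448 ± 1221 in iWAT, and Lpl 3106 ± 627 and 2309 ± 575 (mean ± SD over 24 lean mice, as for all levels in this paragraph). Their ranges of mean ± SD overlapped in eWAT and not in iWAT. Next came Cd36 at 705 ± 150.5 in eWAT and 552 ± 131 CPM per kb in iWAT, and Acsl1 at 419.6 ± 116 and 645 ± 161. Acsl1 was above Cd36 in iWAT, within their spread, and below it in eWAT. Slc27a1 followed with 283 ± 75.2 and 387.5 ± 121, Angptl4 with 106 ± 56.5 and 124 ± 62.2, and Gpihbp1, a gene of capillary endothelium, with 90.3 ± 18.5 and 74.6 ± 17.2 CPM per kb. The spreads of Slc27a1 and Acsl1 overlapped in both depots, and so did those of Angptl4 and Gpihbp1. Lmf1 was the lowest, at 9.35 ± 1.23 in eWAT and 8.50 ± 1.17 in iWAT.

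The depots of lean mice differed in 6 of the 8 genes, where 59.3% of the 14749 genes tested were called. Lpl was higher in eWAT than in iWAT (12783 ± 2579 against 9501 ± 2368 CPM, SD, n = 24 mice; log2 difference 0.36 ± 0.07, adjusted p = 1.69e-05; higher in 18 of 24 mice). So were Cd36 (0.29 ± 0.07, adjusted p = 0.000501; 19 of 24) and Gpihbp1 (0.21 ± 0.07, adjusted p = 0.014; 21 of 24). Acsl1 was lower in eWAT, with 1635 ± 450.5 against 2514 ± 629 CPM (-0.70 ± 0.07, adjusted p = 2.48e-12), and it exceeded iWAT in 1 of 24 mice. Slc27a1 was also lower in eWAT (-0.49 ± 0.06, adjusted p = 1.98e-09; higher in 3 of 24 mice), as was Angptl4 (-0.30 ± 0.07, adjusted p = 0.000472; 10 of 24), though not without the mouse block (adjusted p = 0.261). Fabp4 (-0.10 ± 0.08, adjusted p = 0.253) and Lmf1 (0.06 ± 0.05, adjusted p = 0.282) had no call. Lpl, Gpihbp1 and Cd36 were thus the higher ones in eWAT, and Slc27a1, Acsl1 and, with the mouse block only, Angptl4 the lower ones. Differences between the depots were common over all genes. In lean mice the summed brown or beige adipocyte markers (Ucp1, Cidea, Cox8b, Elovl3 and Ppargc1a) were 20.5 to 56.6 CPM in eWAT and 75.7 to 509 CPM in iWAT. The summed muscle markers were 5.45 to 158 and 8.89 to 33234 CPM. Their part in these differences was not tested. The fit was not repeated without the libraries that held other-tissue RNA.

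Lpl (chromosome 8, 68880491 to 68907448, plus strand, mm10), the lipase itself, had the lowest adjusted p of the 8 genes in any comparison with lean mice, in eWAT at 2 weeks of regression. After 2 weeks on the LFD its level was 4634 to 8291 CPM with a median of 6594 in regression mice and 8582 to 16003 CPM with a median of 13965 in lean mice. The highest regression mouse stood below the lowest lean mouse, so that all 6 regression mice lay under all 6 lean mice. How many of all genes tested were without overlap was not counted, here or in other comparisons. The fall was a log2 fold change -0.99 ± 0.19, adjusted p = 7.89e-05. It was past the threshold under every alternative run, with an adjusted p between 3.56e-05 and 0.000435 when single libraries were left out, 0.0138 in the higher-numbered mice and 0.0113 in the lower-numbered mice. The authors' deposited table gives -0.997 (adjusted p = 6.86e-07) for this comparison.

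In obese mice, before the diet was changed, Lpl in eWAT was 14206, 11076, 9580.5, 7783 and 11194 CPM, against 9507 to 15582 CPM with a median of 13538 in lean mice. The groups overlapped and there was no call (-0.30 ± 0.19, adjusted p = 0.275). At 6 weeks Lpl was 6219 to 12570.0 CPM with a median of 8969.7 in regression mice and 8624 to 17245 CPM with a median of 13770.3 in lean mice (-0.50 ± 0.18, adjusted p = 0.0825), and at 12 weeks 7679 to 11006 CPM with a median of 8949 against 7851 to 15059.8 CPM with a median of 11996 (-0.36 ± 0.18, adjusted p = 0.166). Regression mice overlapped lean mice at both times, and neither difference was called. The change of the difference from obesity to 2 weeks was not called either (-0.69 ± 0.27, adjusted p = 0.121).

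In iWAT the lipase was 3778 to 8039 CPM with a median of 5731 in regression mice at 2 weeks and 5966 to 9255 CPM with a median of 7422 in lean mice. The groups overlapped and no call was made (-0.43 ± 0.19, adjusted p = 0.11). The lean mice of 2 weeks were the lowest lean group for Lpl in iWAT, where those of the other times had medians of 9063.7 to 11025.5 CPM. Obese mice had 9227, 12215, 5634, 9201 and 10478 CPM in iWAT, within 7379 to 12711 CPM in lean mice except for 1 obese mouse below that range (-0.08 ± 0.20, adjusted p = 0.817). At 6 and 12 weeks the iWAT values were 0.11 ± 0.19, adjusted p = 0.839 and -0.26 ± 0.19, adjusted p = 0.537. The depots' responses of Lpl at 2 weeks differed by -0.53 ± 0.19, adjusted p = 0.0812, which was not a call.

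Some cell markers were called beside Lpl in eWAT at 2 weeks, where 35.7% of all genes were called. Whether the marker counts differ from that share was not tested. Of the 7 adipocyte markers 3 were lower (median log2 fold change -0.52), and their summed level was 9664 to 25349 CPM in regression mice and 16910.5 to 26144 CPM in lean mice. All 8 macrophage markers (Adgre1, Cd68, Csf1r, Itgam, Mrc1, Lyz2, C1qa and Trem2) were higher, with sums of 1165 to 3603 and 557 to 806 CPM, and none of either list was at 0 in any eWAT library. Of the 7 endothelial markers 2 were higher, with sums of 847 to 1277 and 872 to 1183 CPM. The part of these markers in the value of Lpl was not tested.

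**Figure D2:**
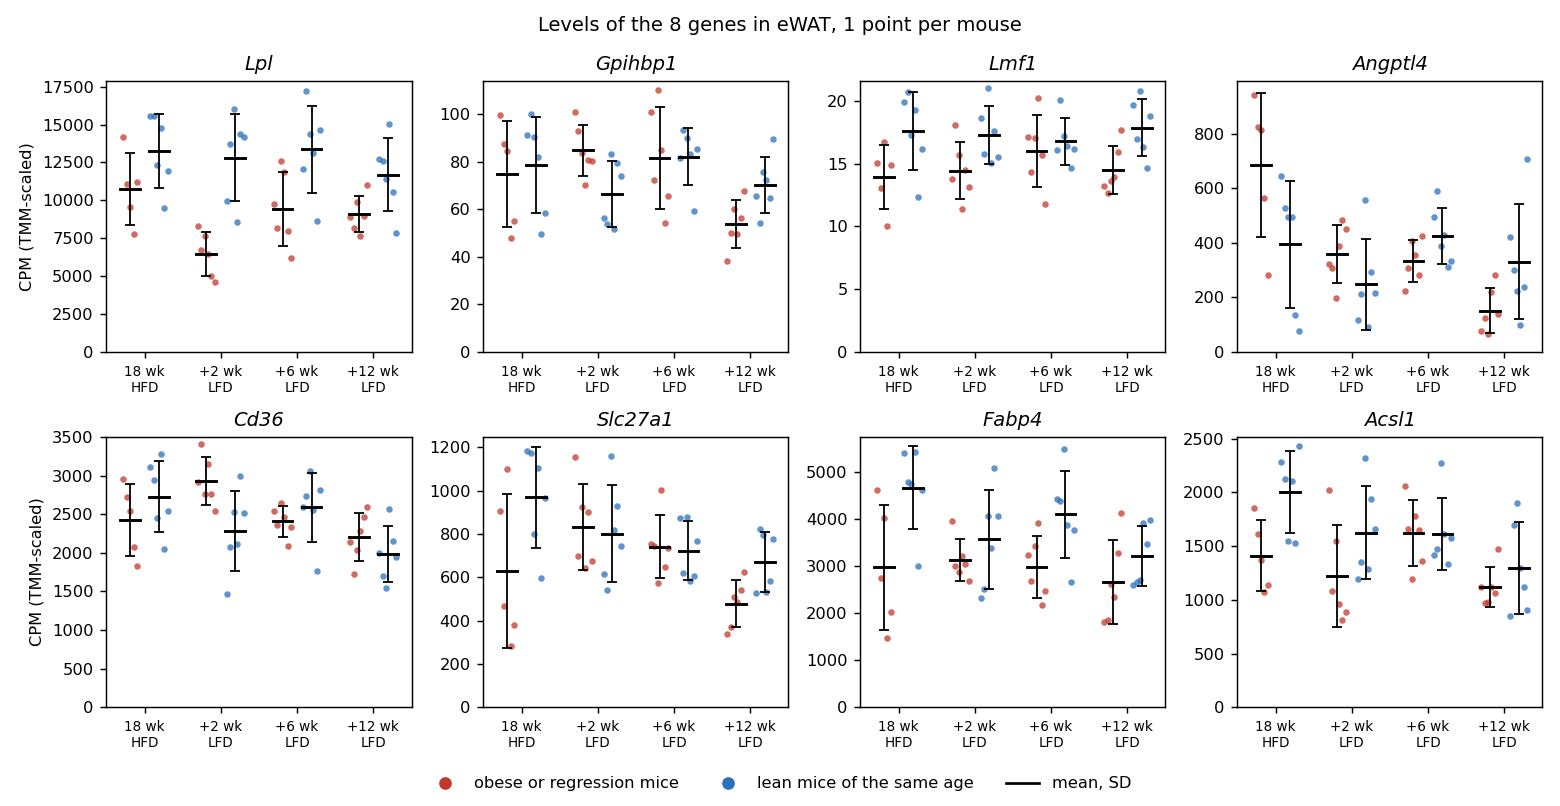
CPM of the 8 genes in eWAT (vertical axes, from 0) at the 4 times (horizontal axes), 1 point per mouse, with obese or regression mice in red, lean mice of the same age in blue, and bars for the mean and SD. For Lpl at 2 weeks the red points end at 8291 CPM and the blue points begin at 8582 CPM; in every other panel and time the colours overlap.

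Gpihbp1 (chromosome 15, 75596628 to 75599481, plus strand), which anchors the lipase on capillary endothelium, was higher in the iWAT of regression mice than of lean mice at 2 weeks. It was 45.6 to 92.0 CPM with a median of 74.7 in regression mice and 32.0 to 62.1 CPM with a median of 48.3 in lean mice. The lean mice of the other times had medians of 61.4 to 71.6 CPM in iWAT, so those of 2 weeks were the lowest lean group. 5 of the 6 regression mice were above the highest lean mouse, and the lowest fell inside the lean range. The difference was called (log2 fold change 0.64 ± 0.18, adjusted p = 0.011) and held when each library was left out (adjusted p 0.00436 to 0.0328). It was not called without the libraries past the cutoff for muscle or lymph node RNA (log2 fold change 0.44, adjusted p = 0.202). Those were 3 of the 6 lean libraries and 1 of the 6 regression libraries at this time, and the libraries kept could hold lower amounts. Nor was the difference called within the higher-numbered mice (adjusted p = 0.0748) or the lower-numbered mice (adjusted p = 0.152). The summed B cell markers were 5.01 to 142 CPM in regression mice and 5.16 to 718 CPM in lean mice at this time, and the summed muscle markers 6.48 to 1812 and 13.6 to 4905 CPM. The 7 endothelial markers summed to 581 to 1162 and 652 to 935 CPM, and their median log2 fold change was 0.13.

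In eWAT at 2 weeks Gpihbp1 was 70.1 to 101 CPM in regression mice and 52.0 to 83.6 CPM in lean mice, with no call (0.35 ± 0.18, adjusted p = 0.128). Obese mice had 99.9, 87.4, 84.8, 48.2 and 55.0 CPM in eWAT, close to the 49.8 to 100.2 CPM of lean mice (-0.07 ± 0.19, adjusted p = 0.831), and 56.6, 110.2, 39.6, 76.9 and 52.5 CPM in iWAT, where lean mice had 48.1 to 86.7 CPM (0.02 ± 0.19, adjusted p = 0.964). At 12 weeks the eWAT value was below lean without a call (-0.39 ± 0.18, adjusted p = 0.124), and the other values at 6 and 12 weeks were -0.01 ± 0.18 in eWAT at 6 weeks and 0.09 ± 0.18 and -0.11 ± 0.18 in iWAT. Lpl and Gpihbp1 shared no called change in the 8 comparisons with lean mice. At 2 weeks, when Lpl was lower in eWAT, the value of Gpihbp1 there was positive.

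Lmf1 (chromosome 17, 25579085 to 25662826, plus strand), the chaperone that lets the lipase fold, was the steadiest of the 8 genes. Its coefficient of variation within a group had a median of 14.5% in eWAT and 11.1% in iWAT, the lowest of the 8 genes in both depots. In obese mice Lmf1 was 15.0, 13.1, 16.7, 9.99 and 14.9 CPM in eWAT, against 12.3 to 20.7 CPM with a median of 18.3 in lean mice, and 1 obese mouse was below the lean range. The point estimate was negative at all 4 times in both depots, from -0.34 in eWAT in obesity to -0.04 in iWAT at 2 weeks, and no comparison passed the test (the lowest adjusted p was 0.0643, in obese eWAT). The authors' deposited table gives -0.35 (adjusted p = 0.0474) for Lmf1 in obese eWAT, which is on the other side of the threshold.

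Angptl4 (chromosome 17, 33773750 to 33781830, minus strand), the inhibitor that fat secretes in fasting, varied most between mice and had the largest point estimates of the 8 genes at 12 weeks. Its coefficient of variation within a group had a median of 46.9% in eWAT and 37.2% in iWAT. In obese mice it was 941, 825, 814, 566 and 280.4 CPM in eWAT, against 74.9 to 645 CPM with a median of 495 in lean mice. In iWAT obese mice had 646, 711, 666, 453.1 and 504 CPM and lean mice 58.0 to 704 CPM with a median of 443.4. The groups overlapped in both depots, with no call (0.79 ± 0.44, adjusted p = 0.195 in eWAT and 0.61 ± 0.41, adjusted p = 0.272 in iWAT).

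After 12 weeks the point estimates were negative, whereas in obesity they were positive. Angptl4 was 66.6 to 281 CPM with a median of 131 in the eWAT of regression mice and 98.5 to 708 CPM with a median of 269.5 in that of lean mice (-1.12 ± 0.43, adjusted p = 0.0647). In iWAT it was 95.6 to 295 CPM with a median of 201 in regression mice and 187 to 798 CPM with a median of 569 in lean mice (-1.45 ± 0.40, adjusted p = 0.122). 5 of the 6 lean mice in iWAT were above every regression mouse, and the other lean mouse was inside the regression range. edgeR called neither depot, whereas the authors' deposited table gives -1.13 (adjusted p = 0.0364) in eWAT and -1.45 (adjusted p = 0.0381) in iWAT. The change of the difference from obesity to 12 weeks was called in iWAT (-2.06 ± 0.57, adjusted p = 0.0263) and not in eWAT (-1.92 ± 0.61, adjusted p = 0.0907). In iWAT it held when each library was left out (adjusted p 0.0132 to 0.049). It did not hold without the libraries past the cutoff for muscle or lymph node RNA (adjusted p = 0.0939) or within the lower-numbered mice (adjusted p = 0.254). At 2 weeks the values were 0.54 ± 0.42, adjusted p = 0.347 in eWAT and 0.61 ± 0.40, adjusted p = 0.284 in iWAT, and at 6 weeks -0.35 ± 0.42, adjusted p = 0.628 and -0.28 ± 0.39, adjusted p = 0.775.

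Angptl4 differed between the series of mouse numbers in several groups. In the iWAT of regression mice at 12 weeks, the 3 higher-numbered mice had 95.6 to 111 CPM and the 3 lower-numbered mice had 291 to 295 CPM. In eWAT the same mice had 66.6 to 124 and 139 to 281 CPM. The higher-numbered mice were the lower ones there and the higher ones in obesity, with 814 to 941 CPM in obese eWAT for the higher numbers and 280.4 to 566 CPM for the lower numbers. Fitted apart, the 12-week difference in iWAT was -2.63 (adjusted p = 0.0123) in the higher-numbered mice and -0.58 (adjusted p = 0.616) in the lower-numbered mice, and in eWAT -1.81 (adjusted p = 0.0231) and -0.70 (adjusted p = 0.541). The difference between the series in the 12-week contrast, tested after it was seen, was -2.05 ± 0.65 in iWAT (adjusted p = 0.0748) and -1.11 ± 0.77 in eWAT (adjusted p = 1), and was called in neither.

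**Figure D3:**
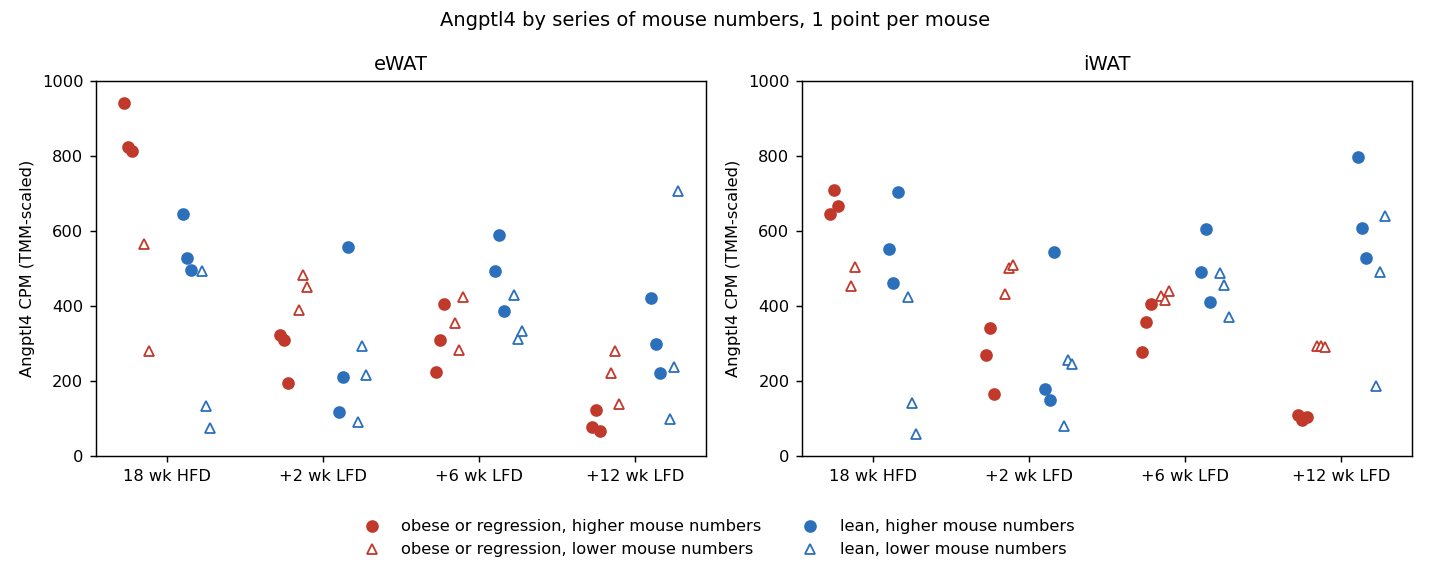
Angptl4 CPM per mouse (vertical axis, from 0) in eWAT and iWAT at the 4 times (horizontal axis), with obese or regression mice in red and lean mice in blue; filled circles are higher-numbered mice and open triangles the lower-numbered mice. At 12 weeks the red circles lie below the red triangles in both depots, and in iWAT the triangles are within 291 to 295 CPM.

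A mouse that was high for Angptl4 in one depot was high in the other. After the group means were subtracted, the log2 CPM of Angptl4 in eWAT and iWAT correlated over the 47 mice (Pearson r = 0.89, Spearman rho = 0.90; permutation p = 1e-05 for each, the smallest that 100000 permutations within groups can give; adjusted p = 4e-05 over the 8 genes). Without the 2 mice farthest from the median in eWAT r was 0.84, and with the means of each group and series subtracted it was 0.85 (permutation p = 0.00013, adjusted p = 0.00052). Slc27a1 came next (r = 0.76, rho = 0.81, adjusted p = 4e-05 and 4e-05 from permutation; r = 0.73 without the 2 farthest mice and 0.74 with series means subtracted), then Acsl1 (r = 0.61, rho = 0.60, permutation adjusted p = 0.00016 and 0.00024; 0.59 without the 2 farthest and 0.56 with series means subtracted). Lpl (r = 0.49) and Fabp4 (r = 0.47) were lower, with permutation adjusted p of 0.00218 and 0.00398, and Gpihbp1 (r = 0.35) and Lmf1 (r = 0.35) lower again. For Lmf1 the permutation adjusted p was 0.0289 for r and 0.0457 for rho. For Gpihbp1 it missed the threshold for r (0.0526) and passed it for rho (0.0176; rho = 0.41). With series means subtracted as well, r of Fabp4, Gpihbp1 and Lmf1 missed the threshold (permutation adjusted p 0.0664, 0.11 and 0.357). Cd36 had the weakest relation (r = 0.14, rho = 0.15, permutation adjusted p = 0.469). The depots of a mouse share its enclosure and handling, whose part in these relations was not tested.

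**Figure D4:**
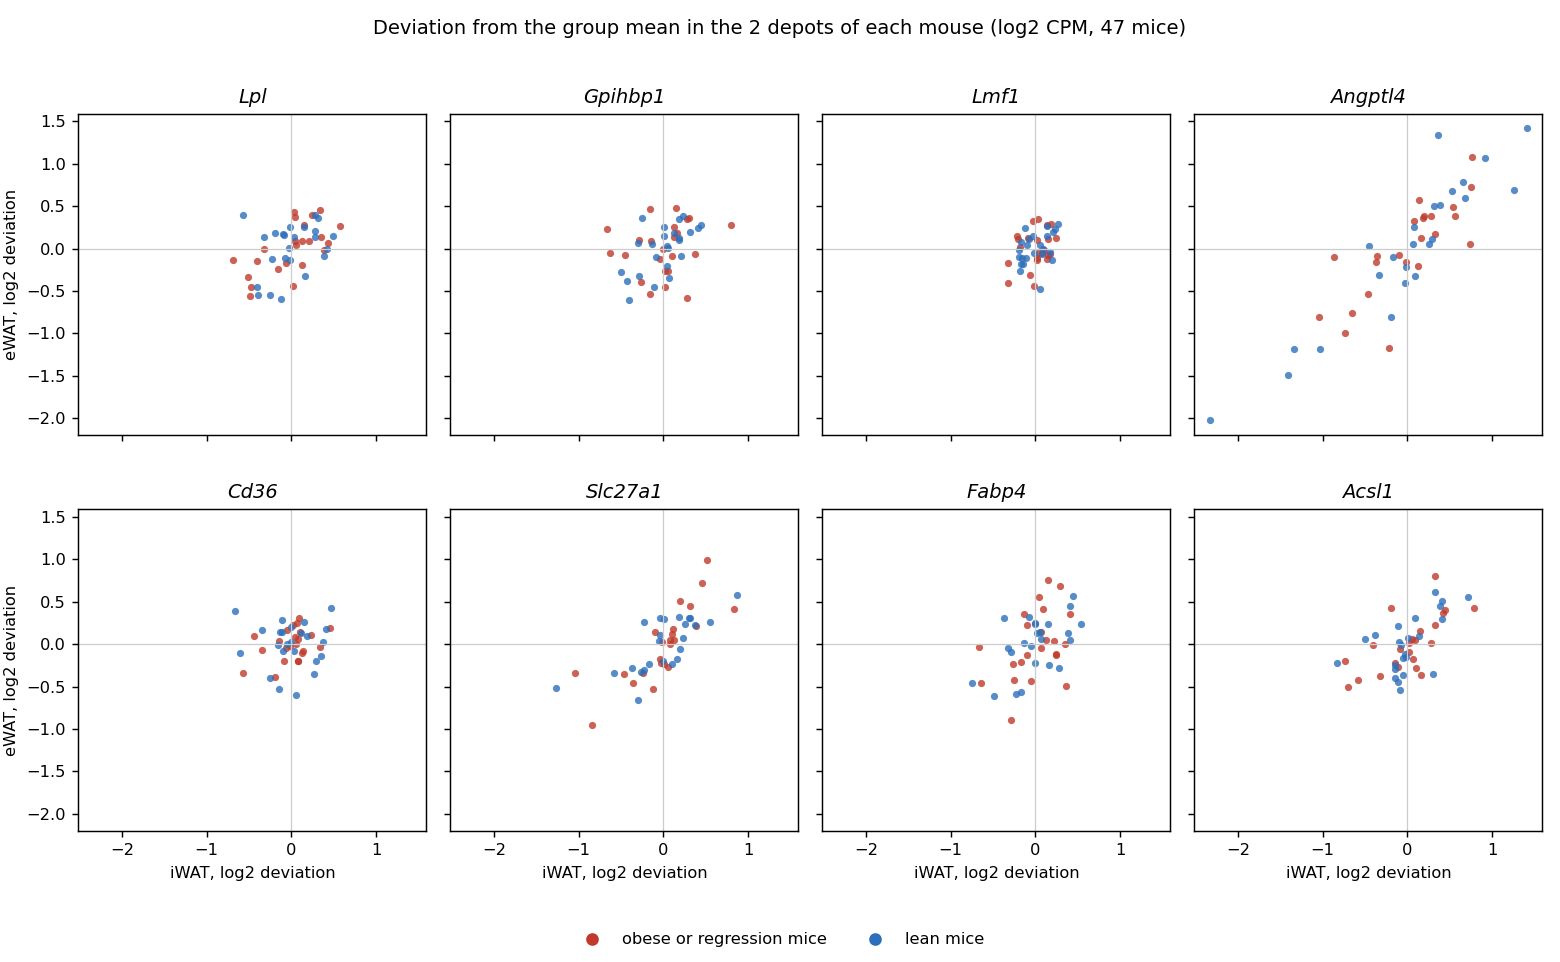
Deviation of log2 CPM from the group mean in eWAT (vertical axis) against that in iWAT of the same mouse (horizontal axis) for each of the 8 genes, 47 mice, with obese or regression mice in red and lean mice in blue. Angptl4 (r = 0.89) and Slc27a1 (r = 0.76) lie along a diagonal, and Cd36 (r = 0.14) forms a round cloud.

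Cd36 (chromosome 5, 17781690 to 17888801, minus strand), the scavenger receptor that takes up long-chain fatty acids in adipocytes, endothelium and macrophages, was higher in eWAT after 2 weeks of regression. Its level was 2544 to 3407 CPM with a median of 2844 in regression mice and 1472 to 2992 CPM with a median of 2311 in lean mice, and the groups overlapped. The rise (log2 fold change 0.36 ± 0.14, adjusted p = 0.0454) stood near the threshold. Leaving out lean replicate 1 (adjusted p = 0.151), 2 (0.0868) or 4 (0.0768) or regression replicate 2 (0.0624) or 4 (0.0513) ended the call, as did a fit on the compared groups alone (adjusted p = 0.139). So did DESeq2's size factors in the edgeR fit. The authors' deposited table gives 0.35 (adjusted p = 0.0398) for this rise. It was 0.57 in the higher-numbered mice (adjusted p = 0.0285) and 0.16 in the lower-numbered mice (adjusted p = 0.589). All 8 macrophage markers were also higher in this comparison, with the sums given above.

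In iWAT at 2 weeks Cd36 was 1427 to 2126 CPM in regression mice and 895 to 1895 CPM in lean mice, with a similar estimate and no call (0.37 ± 0.16, adjusted p = 0.1). The medians were 1866 CPM in these regression mice and 1404 CPM in these lean mice, the lowest lean group in iWAT. Lean mice of the other times had medians of 1944 to 2080 CPM for Cd36. In obese mice it was 2951, 2729, 2546, 2074 and 1826 CPM in eWAT (-0.17 ± 0.15, adjusted p = 0.459 against lean) and 2147, 2761, 1482, 2126 and 1757 CPM in iWAT (-0.08 ± 0.17, adjusted p = 0.76), where lean mice ran over 2048 to 3273 and 1815 to 2748 CPM. 1 obese mouse in eWAT and 2 in iWAT were below those ranges, and 1 in iWAT was above. At 6 and 12 weeks the values ran from -0.11 to 0.16, and none was called.

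Slc27a1 (chromosome 8, 71568882 to 71587302, plus strand) encodes FATP1, a transport protein that moves to the plasma membrane of adipocytes in response to insulin. In obese mice it was 797, 585, 834, 325 and 536 CPM in iWAT, against 1117 to 1781 CPM with a median of 1333 in lean mice. All 5 obese mice were below all 6 lean mice, the only gene of the 8 without overlap in obesity. These lean mice were the highest lean group in iWAT. Lean mice of 2, 6 and 12 weeks had medians of 999, 1137 and 808 CPM and began at 357, 880 and 682 CPM. The obese mice thus overlapped the lean mice of 2 and 12 weeks. Lean mice at 12 weeks were below those of the obesity time without a call (-0.74 ± 0.24, adjusted p = 0.176, edgeR). The share of all genes without overlap was not counted, and 30.2% of genes were called in this comparison. The fall was a log2 fold change -1.18 ± 0.26, adjusted p = 0.00063, and the authors' deposited table gives -1.17 (adjusted p = 4.9e-05). It was called when each library was left out (adjusted p 0.00052 to 0.00453) and without the libraries past the cutoff for other-tissue RNA (adjusted p = 0.00103). Of the groups compared, that cutoff left out lean replicate 4 and no obese library. The summed muscle markers ran from 24.4 to 2401 CPM in obese mice and from 9.50 to 5012 CPM in lean mice of that time. Within the lower-numbered mice it was -1.68 (adjusted p = 0.00157), and in the higher-numbered mice it was -0.88 and not called (adjusted p = 0.101).

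Obese eWAT held 907, 469.9, 1102, 285 and 381 CPM of Slc27a1, against 596 to 1181 CPM with a median of 1035 in lean mice. 3 of the 5 obese mice were below the lowest lean mouse and the other two were inside the lean range. The gene was not called there by edgeR (-0.63 ± 0.24, adjusted p = 0.0567), though it was in the authors' deposited table, -0.63 (adjusted p = 0.0381), in the lower-numbered mice (-1.41, adjusted p = 0.00849; -0.35 and adjusted p = 0.6 in the higher-numbered mice), and without obese replicate 3 (adjusted p = 0.00475), obese replicate 1 (0.0208) or lean replicate 5 (0.0306). At 2 weeks regression mice had 644 to 1157 CPM in eWAT and lean mice 544 to 1159 CPM (0.06 ± 0.23, adjusted p = 0.906), and in iWAT 706 to 949 and 357 to 1579 CPM (-0.20 ± 0.24, adjusted p = 0.582). The values at 6 weeks were 0.04 ± 0.23 in eWAT and -0.29 ± 0.24 in iWAT and at 12 weeks -0.49 ± 0.23 and -0.43 ± 0.24, without a call. The iWAT median was 607 CPM in regression mice at 12 weeks and 585 CPM in obese mice. In obese iWAT, where 30.2% of all genes were called, 4 of the 7 adipocyte markers and 5 of 5 brown or beige adipocyte markers were lower. There 8 of 8 macrophage markers were higher. The summed adipocyte markers were 12519.9 to 16833 CPM in obese and 18315 to 23598 CPM in lean mice, the brown or beige markers 24.5 to 70.2 and 196 to 450.1 CPM, and the macrophage markers 1151 to 4128 and 523 to 1339.5 CPM. Their part in the fall was not tested.

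**Figure D5:**
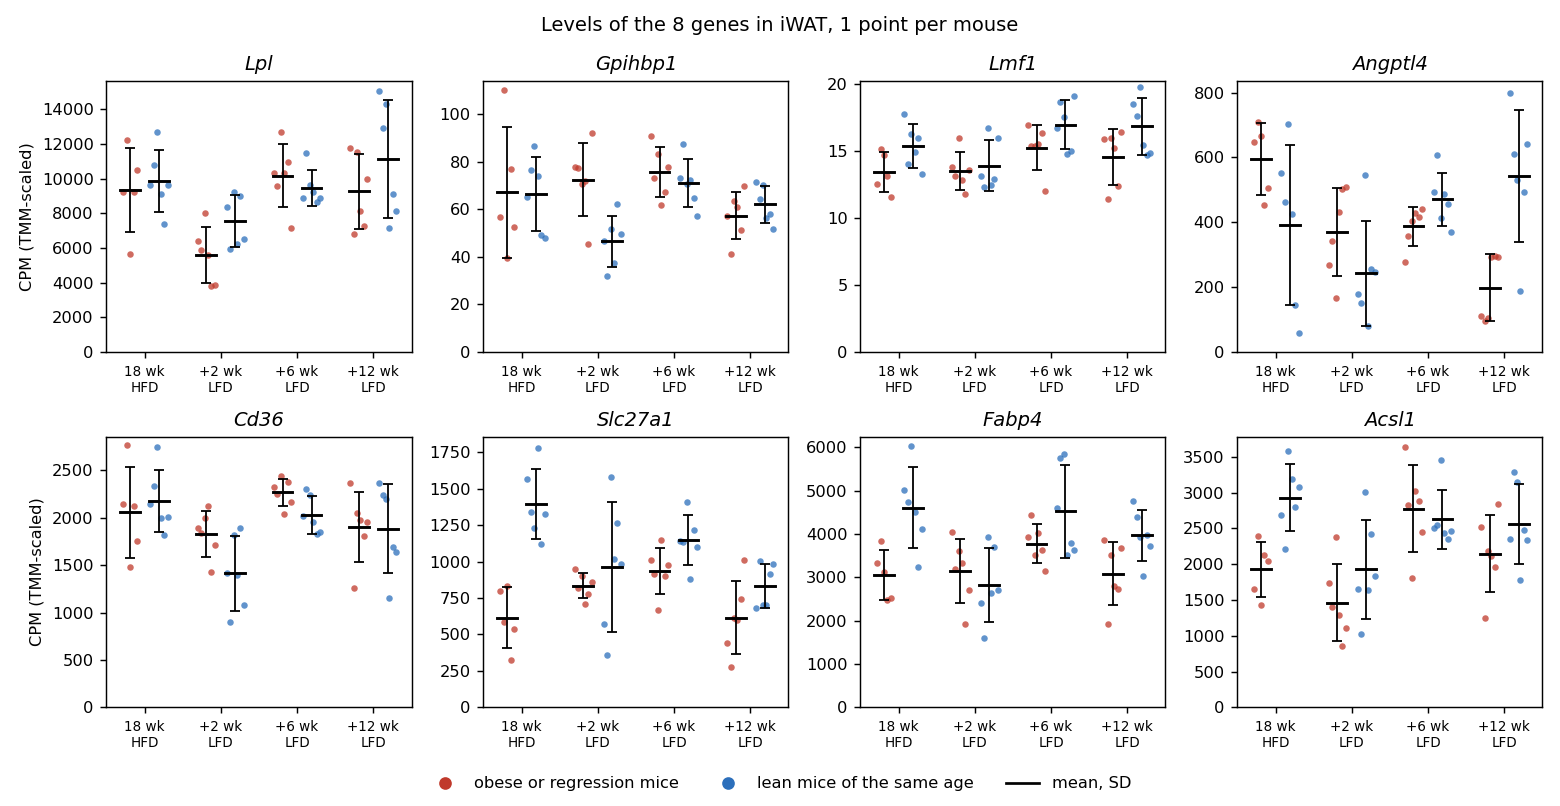
CPM of the 8 genes in iWAT (vertical axes, from 0) at the 4 times (horizontal axes), 1 point per mouse, with obese or regression mice in red, lean mice of the same age in blue, and bars for the mean and SD. For Slc27a1 in obesity the red points end at 834 CPM and the blue points begin at 1117 CPM; in every other panel and time the colours overlap.

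Fabp4 (chromosome 3, 10204088 to 10208576, minus strand), the abundant fatty acid binding protein of adipocytes, was lower in both depots of obese mice. In eWAT obese mice had 4600.2, 2739.8, 4022, 1465 and 2029 CPM and lean mice 2999.8 to 5418 CPM with a median of 4756, and the groups overlapped (log2 fold change -0.65 ± 0.24, adjusted p = 0.0406). In iWAT obese mice had 3339.8, 3849, 3118, 2469 and 2532 CPM and lean mice 3239.7 to 6029 CPM with a median of 4625, with overlap at the lower end of the lean group (log2 fold change -0.59 ± 0.20, adjusted p = 0.0194). The eWAT call ended when any 1 of 8 of the 11 libraries compared was left out, among them obese replicate 4 (adjusted p = 0.206), obese replicate 5 (0.122), obese replicate 2 (0.0945) and lean replicates 1, 2, 3, 4 and 6 (0.0554 to 0.0789), and without the filter on low counts (adjusted p = 0.0615). It was -1.30 in the lower-numbered mice (adjusted p = 0.0202) and -0.39 in the higher-numbered mice (adjusted p = 0.339). The iWAT call ended without lean replicate 3 (adjusted p = 0.0646), obese replicate 4 (0.0632) or obese replicate 5 (0.0551), and it was -0.60 in the higher-numbered and -0.63 in the lower-numbered mice, without a call in either.

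In obese eWAT the summed adipocyte markers were 8177 to 21466 CPM, against 15105 to 28222 CPM in lean mice, with 2 of 7 lower. The macrophage markers summed to 907 to 3741 against 543 to 745 CPM, with 8 of 8 higher. In this comparison 23.4% of all genes were called. The part of these markers in the value of Fabp4 was not tested. During regression Fabp4 had no call. In eWAT the lean mice of the obesity time had the highest lean median, 4756 CPM, against 3077 to 4119 CPM at the later times. The medians of obese mice and of regression mice at 2, 6 and 12 weeks were 2740, 3023, 2954 and 2474 CPM. Lean mice at 12 weeks were below those of the obesity time without a call (-0.53 ± 0.22, adjusted p = 0.299, edgeR). At 2 weeks it was 2683 to 3959 CPM with a median of 3023 in the eWAT of regression mice and 2311 to 5077 CPM with a median of 3715 in that of lean mice (-0.19 ± 0.22, adjusted p = 0.562). At 6 weeks it was 2166 to 3908 and 2663 to 5479 CPM (-0.46 ± 0.22, adjusted p = 0.19) and at 12 weeks 1805 to 4118 and 2598 to 3963 CPM (-0.27 ± 0.22, adjusted p = 0.396). The iWAT values were 0.15 ± 0.19, -0.26 ± 0.19 and -0.36 ± 0.19 at 2, 6 and 12 weeks. The lean mice of 2 weeks were the lowest lean group for Fabp4 in iWAT, with a median of 2667 CPM against 3954 to 4625 CPM at the other times.

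Acsl1 (chromosome 8, 46471037 to 46536051, plus strand), the main long-chain acyl-CoA synthetase of adipocytes, was lower in obese iWAT. It was 1656, 2389, 1432, 2128 and 2041 CPM in obese mice and 2218 to 3587 CPM with a median of 2943 in lean mice, and 1 obese mouse reached into the lean range. The call (log2 fold change -0.60 ± 0.22, adjusted p = 0.0369) ended without obese replicate 1 (adjusted p = 0.0893) or 3 (0.108) or lean replicate 3 (0.0868), 4 (0.0705) or 6 (0.0554), and without the filter on low counts (adjusted p = 0.0558); within each series of mouse numbers it was -0.62 (in the higher-numbered mice) and -0.50 (in the lower-numbered mice) without a call. Obese eWAT held 1856, 1615, 1373, 1070.4 and 1141 CPM, against 1527 to 2435 CPM with a median of 2115 in lean mice, a similar estimate with no call (-0.51 ± 0.22, adjusted p = 0.0849). At 2 weeks the values were -0.41 ± 0.21, adjusted p = 0.113 in eWAT and -0.40 ± 0.21, adjusted p = 0.182 in iWAT. At 6 weeks they were 0.00 ± 0.20 and 0.08 ± 0.21, and at 12 weeks -0.21 ± 0.20 and -0.25 ± 0.21.

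Slc27a1 and Acsl1, both on chromosome 8, were each lower in obese iWAT, and their promoters are shown for that reason. The sequences are those of RefSeq on GRCm38.p6, the 250 bases before and 50 bases after the annotated start, 5′ to 3′ on the coding strand; 4 of the 8 genes (Lmf1, Cd36, Slc27a1 and Acsl1) matched an entry, and where a gene had several the one that holds the GENCODE gene start was taken. Capitals mark exact matches, on either strand, to the GC box GGGCGG, the CCAAT box CCAAT, the TATA box TATAAA or the nuclear receptor half-site AGGTCA.
Slc27a1, chr8:71568621-71568920, plus strand: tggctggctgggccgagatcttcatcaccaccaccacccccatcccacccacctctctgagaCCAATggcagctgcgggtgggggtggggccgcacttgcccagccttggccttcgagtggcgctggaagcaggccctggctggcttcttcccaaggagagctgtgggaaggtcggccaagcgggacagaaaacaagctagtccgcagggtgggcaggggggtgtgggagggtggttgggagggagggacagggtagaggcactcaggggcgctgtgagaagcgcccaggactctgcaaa
Acsl1, chr8:46470787-46471086, plus strand: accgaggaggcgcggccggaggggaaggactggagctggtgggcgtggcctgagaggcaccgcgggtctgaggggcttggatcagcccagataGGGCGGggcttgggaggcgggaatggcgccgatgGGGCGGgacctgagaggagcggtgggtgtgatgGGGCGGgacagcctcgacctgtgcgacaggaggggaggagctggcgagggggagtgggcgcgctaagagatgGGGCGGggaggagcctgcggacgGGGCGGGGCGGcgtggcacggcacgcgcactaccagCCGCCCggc
The Slc27a1 window held 1 CCAAT box and no GC box, with 65.7% G and C and 10 CpG dinucleotides. The Acsl1 window held 7 GC boxes, a pair of which overlap by 1 base, and no CCAAT box, with 74.0% G and C and 30 CpG dinucleotides. Neither held the TATA box or the half-site. Of all 32851 RefSeq promoter windows of this length, 35.7% held a GC box, 37.4% a CCAAT box, 13.6% a TATA box and 16.3% the half-site, and the median window was 52.7% G and C with 7 CpG. A match is a description of the letters only.

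Around these 8 genes, 59 further genes of the route were listed and 51 were tested in each depot. Called genes were 6 higher and 8 lower in obese eWAT, 7 higher and 20 lower at 2 weeks, 3 higher and 0 lower at 6 weeks and 4 higher and 8 lower at 12 weeks, and in iWAT 9 higher and 15 lower in obesity, 6 higher and 7 lower at 2 weeks and, by edgeR, 0 at 6 and 12 weeks (15 and 13 at an unadjusted p under 0.05). The shares of all genes called in these comparisons are those given above.

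Among the 14 tested genes of lipase maturation and its extracellular regulators, 3 rose and 3 fell in obese eWAT, and 5 and 4 in obese iWAT. Angptl8, counted under its older symbol Gm6484, is a partner of ANGPTL4 that insulin induces. It was 5.53 to 14.2 CPM with a median of 12.0 in obese eWAT and 12.4 to 242 CPM with a median of 32.6 in lean eWAT (-2.98 ± 0.80, adjusted p = 0.00566), and 2.92 to 24.3 CPM with a median of 8.88 and 13.1 to 297 CPM with a median of 37.4 in iWAT (-3.27 ± 0.82, adjusted p = 0.00223). At 2 weeks Gm6484 was lower in eWAT (-1.86 ± 0.74, adjusted p = 0.0448), where the regression mice ran over 1.06 to 44.3 CPM and the lean mice over 22.7 to 66.8 CPM. Apoc3, which inhibits the lipase, fell in obese eWAT (-1.67 ± 0.61, adjusted p = 0.0398), in obese iWAT (-3.91 ± 0.58, adjusted p = 3.43e-06) and in iWAT at 2 weeks (-2.43 ± 0.48, adjusted p = 0.000476), and Apoc2, its cofactor, in obese iWAT (-1.37 ± 0.48, adjusted p = 0.0251).

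Pltp, the phospholipid transfer protein of plasma lipoproteins, rose in obese eWAT (1.53 ± 0.25, adjusted p = 5.44e-05). It was still higher there after 2 weeks of regression (1.81 ± 0.25, adjusted p = 1.93e-06), after 6 weeks (1.15 ± 0.24, adjusted p = 0.00585) and after 12 weeks (0.92 ± 0.24, adjusted p = 0.00897). In iWAT it rose in obesity (1.28 ± 0.20, adjusted p = 8.68e-06) and at 2 weeks (0.79 ± 0.19, adjusted p = 0.00356). Its eWAT level at 12 weeks was 99.0 to 256 CPM with a median of 219 in regression mice and 85.8 to 140.3 CPM with a median of 89.2 in lean mice. The syndecan Sdc1, a cell-surface heparan sulfate proteoglycan, rose in obese eWAT (1.18 ± 0.26, adjusted p = 0.00122), at 2 weeks (1.34 ± 0.25, adjusted p = 8.61e-05) and at 6 weeks (0.80 ± 0.25, adjusted p = 0.045), and in iWAT in obesity (1.14 ± 0.28, adjusted p = 0.00183) and at 2 weeks (1.02 ± 0.27, adjusted p = 0.00644). Sort1, a sorting receptor, fell in eWAT in obesity (-0.50 ± 0.14, adjusted p = 0.00704) and at 2 weeks (-0.72 ± 0.13, adjusted p = 6.48e-05) and in obese iWAT (-0.43 ± 0.14, adjusted p = 0.0181). All 8 macrophage markers were higher at all 4 times in eWAT, where Pltp was called at all 4 times and Sdc1 not at 12 weeks (0.62 ± 0.25, adjusted p = 0.0834). In iWAT all 8 were higher in obesity but 1 of the 8, Itgam, at 2 weeks, when Pltp and Sdc1 were both called. The macrophage markers then summed to 2044 to 4921 CPM in regression mice and 1265 to 2728 CPM in lean mice. At 12 weeks their sum in eWAT was 801 to 4274 CPM in regression mice and 448.2 to 1049.7 CPM in lean mice; their part was not tested.

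Of the 6 lipoprotein receptors, Lrp1, which clears remnants, was higher at all 4 times in eWAT (0.60 ± 0.18, 0.72 ± 0.17, 0.73 ± 0.17 and 0.64 ± 0.17; adjusted p 0.00137 to 0.0136) and in iWAT in obesity (0.50 ± 0.11, adjusted p = 0.000852) and at 2 weeks (0.57 ± 0.11, adjusted p = 0.000261). Vldlr rose in obese eWAT (0.49 ± 0.10, adjusted p = 0.000433), and Scarb1 (-0.54 ± 0.15, adjusted p = 0.00371) fell in eWAT at 2 weeks. Scarb1 was also lower in eWAT at 12 weeks (-0.41 ± 0.15, adjusted p = 0.0491). Among transport proteins and caveolae genes, Slc27a4 fell in eWAT at 2 weeks (-0.71 ± 0.12, adjusted p = 1.67e-05) and 12 weeks (-0.36 ± 0.12, adjusted p = 0.0286), and Slc27a3 rose at 2 weeks (0.42 ± 0.16, adjusted p = 0.0406). Cav1, a caveola coat protein, fell in eWAT at 2 weeks (-0.74 ± 0.16, adjusted p = 0.000508), as did Cav2 (-0.63 ± 0.17, adjusted p = 0.00313), and it rose in obese iWAT (0.67 ± 0.18, adjusted p = 0.00372). Slc27a2 in iWAT was 0 to 0.0987 CPM in obese mice and 2.82 to 12.6 CPM in lean mice (-6.76 ± 1.04, adjusted p = 6.02e-06, a fitted value that depends on the prior count at so low a level), and was lower at 2 weeks as well (-4.42 ± 0.83, adjusted p = 0.00023).

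Fabp5, a binding protein of adipocytes and macrophages, fell in eWAT at 2 weeks (-0.79 ± 0.28, adjusted p = 0.023) and in iWAT in obesity (-1.13 ± 0.32, adjusted p = 0.00601) and at 2 weeks (-1.55 ± 0.30, adjusted p = 0.000393). Dbi, the acyl-CoA binding protein, fell in eWAT at 2 weeks (-0.68 ± 0.21, adjusted p = 0.00816). Of the 8 acyl-CoA synthetases tested in iWAT, 4 fell in obesity and 4 at 2 weeks. Acsf2 (-1.32 ± 0.18, adjusted p = 1.11e-06 in obesity; -0.92 ± 0.17, adjusted p = 0.000181 at 2 weeks), Acsf3 (-0.88 ± 0.18 and -0.70 ± 0.17) and Acss1 (-0.84 ± 0.16 and -0.74 ± 0.15) fell at both times. In eWAT at 2 weeks Acsl3 fell (-0.86 ± 0.26, adjusted p = 0.00863) and Acsl5 rose (0.54 ± 0.11, adjusted p = 0.000144).

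Of the 8 transcriptional regulators, 3 were lower in obese eWAT and 4 lower and 1 higher in obese iWAT. Pparg, the nuclear receptor that drives adipocyte genes including Lpl and Fabp4, was 122 to 189 CPM with a median of 142 in obese eWAT and 206 to 356 CPM with a median of 251 in lean eWAT, so the groups did not overlap (-0.80 ± 0.20, adjusted p = 0.00369). It fell likewise in obese iWAT (-0.91 ± 0.21, adjusted p = 0.00109) and in eWAT at 2 weeks (-0.84 ± 0.19, adjusted p = 0.000719), and had no call at 6 weeks (-0.03 ± 0.19, adjusted p = 0.938) or 12 weeks (-0.01 ± 0.19, adjusted p = 0.976) in eWAT. Cebpa fell in obese eWAT (-0.52 ± 0.20, adjusted p = 0.0457), in eWAT at 2 weeks (-1.001 ± 0.19, adjusted p = 7.08e-05) and in obese iWAT (-0.60 ± 0.17, adjusted p = 0.00593). Ppara (-1.60 ± 0.36, adjusted p = 0.000867) and Ppargc1a (-1.03 ± 0.25, adjusted p = 0.00202) were lower in obese iWAT, and Ppargc1a in obese eWAT (-1.04 ± 0.22, adjusted p = 0.000712). Among regulators of endothelial fatty acid transport, the apelin receptor Aplnr rose in obese eWAT (1.09 ± 0.24, adjusted p = 0.00115) and obese iWAT (1.04 ± 0.28, adjusted p = 0.00469). Vegfb fell in eWAT at 2 weeks (-0.66 ± 0.17, adjusted p = 0.00178), beside Tcf15 (-0.61 ± 0.20, adjusted p = 0.0161), a partner of Meox2 in heart capillaries.

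For each of the 8 genes, the 3 genes most like it in each depot were found as those with the highest Pearson correlation of log2 CPM over the 47 libraries, among 11152 genes in eWAT and 10912 in iWAT with a mean of at least 5 CPM. These are the highest of many values over libraries that share diets and depth, and are descriptions. Lpl was most like Ak3 (0.94), Cd1d1 (0.93) and Isoc1 (0.92) in eWAT and Gstz1 (0.93), Cd1d1 (0.92) and Bche (0.92) in iWAT. Gpihbp1 was most like Ushbp1 (0.83), Robo4 (0.82) and Hrct1 (0.81) in eWAT and Esam (0.90), Robo4 (0.88) and Ushbp1 (0.86) in iWAT, of which Robo4 and Esam are known as endothelial genes. Angptl4 was most like Adora2a (0.74), Cldn5 (0.73) and Klf11 (0.71) in eWAT and Klf11 (0.79), Txnip (0.78) and Cldn5 (0.77) in iWAT. Cd36 was most like Adgrl4 (0.86), Aqp7 (0.85) and Ypel5 (0.84) in eWAT and Cd59a (0.88), Ywhab (0.87) and Arhgap29 (0.85) in iWAT. Slc27a1 had Arxes2 (0.87), Hcar1 (0.86) and Nxnl1 (0.86) in eWAT and Arxes2 (0.89), Adipor2 (0.86) and Map1lc3b (0.86) in iWAT, and Fabp4 had Mgst1 (0.91), Sh3glb1 (0.90) and Tspan12 (0.88) and Mgst1 (0.92), Adh1 (0.91) and Scp2 (0.90). Acsl1 had Cdip1 (0.81), Kif1b (0.80) and Adipor2 (0.79) in eWAT and, in iWAT, the peroxisomal genes Pex13 and Pxmp4. Lmf1 had Bckdha (0.83), D2hgdh (0.83) and Tmem143 (0.80) in eWAT and Mdh2 (0.78), Cox8a (0.78) and Anapc13 (0.77) in iWAT.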

How the data were processed

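Bulk RNA was measured as polyadenylated transcripts in 94 libraries, 47 per depot. The authors deposited a table of raw counts per gene symbol for each depot, and tables of their own comparisons with log2 fold changes and adjusted p-values. Per the submitters' processing notes, STAR 2.4.1c, R 4.2.2, DESeq2 1.38.3 and mm10 were used; no source used here gives the counting program or its strand setting.
From the deposited counts, genes with low counts were removed (filterByExpr) and edgeR 4.0.16 (R 4.3.3) was fitted per depot over all 47 libraries with 8 group means, TMM scaling and the quasi-likelihood test, with Benjamini-Hochberg adjustment over all genes tested. The depots were compared in 1 fit over 94 libraries with mouse as a block. Errors of log2 fold changes are standard errors from that test. The scripts were tested on simulated data. DESeq2 1.42.0, other scalings, no filter, a replicate block, each series of mouse numbers and left-out libraries were alternatives; the closing section gives their effect. Members and lists were chosen with earlier results of these data known. All 8 genes are described, of each further list at most 4 called genes with the largest absolute log2 fold change in a comparison are named (their values in other comparisons are given too), and the 3 most correlated genes of each member. Some genes that these rules would name are not reported here. Replicate numbers pair no mice across groups by the labels, and no comparison had every pair's correlation over 0.1. No 2 libraries of a group agreed within sampling noise (chi-square per degree of freedom at least 3.63). Replicates are separate mice.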

Additional observations from a re-analysis of the deposited data

Results flagged for a closer look

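Over 128 sets of 1 gene in 1 group, 7 held a library far from the others of its group, and chance alone gives about 1 in 20 sets. Acsl1 was high in 3 of them. In eWAT, regression replicate 6 at 12 weeks had 1471 CPM of Acsl1, with 1120.2 CPM in the next mouse. Lean replicate 3 at 6 weeks had 2271 CPM in eWAT (next 1616) and 3455 CPM in iWAT (next 2552), so the same mouse was high for Acsl1 in both depots. Lpl was high in iWAT of lean replicate 2 at 6 weeks (11451 CPM, next 9629).
In the other 3 sets a library was low. Lmf1 had 12.1 CPM in iWAT of regression replicate 6 at 6 weeks (next 15.4). Gpihbp1 had 59.5 CPM in eWAT of lean replicate 5 at 6 weeks (next 81.9), and Fabp4 2999.8 CPM in eWAT of lean replicate 5 at the obesity time (next 4602); all 3 of these libraries were among those that held other-tissue RNA (6 in eWAT and 14 in iWAT), whose part was not tested. None of the 4 libraries with a high value was among them.
The difference of Angptl4 from lean mice in iWAT was not the same at 12 weeks as in obesity, by -2.06 on the log2 scale (adjusted p = 0.0263, edgeR).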

How the results depend on the processing

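Of the values of single genes under the alternatives, 1219 kept their direction and their side of the threshold, 40 lost a call, 32 gained one and 68 changed sign; of the counts of called genes, 159 stayed within 1.5 times and 43 did not. The cause of these changes was not tested, except that the fits within a series and on left-out libraries hold fewer samples. In obese eWAT the count of called genes among the 8, 1 in edgeR, was 0 without the filter on low counts, 0 in the compared groups alone, 0 in the higher-numbered mice, 2 with the replicate block, and 3 with the series as a term, in the lower-numbered mice and in DESeq2. In eWAT at 2 weeks, 2 became 1 with DESeq2's size factors, with the replicate block and in the compared groups alone. In eWAT at 12 weeks, 0 became 2 in the higher-numbered mice and 1 in DESeq2. In obese iWAT, 3 became 1 in the lower-numbered mice and 0 in the higher-numbered mice, and in iWAT at 2 weeks 1 became 2 and 0. In iWAT at 12 weeks, 0 became 1 in the higher-numbered mice and in DESeq2. For the change from obesity to 12 weeks in iWAT, 1 became 0 without the libraries with other-tissue RNA. With 1 library left out at a time the counts ran from 0 to 3 in obese eWAT, 1 to 3 in eWAT at 2 weeks, 0 to 1 at 6 weeks and 0 to 1 at 12 weeks, and from 1 to 3 in obese iWAT and 1 to 3 in iWAT at 2 weeks. The replicate numbers pair no samples, so the replicate block is given here only. Without the mouse block, the lean depot difference was called for 5 of the 8 genes in place of 6, since Angptl4 lost its call (-0.273, adjusted p = 0.261), and the depot differences of the responses stayed at 0 called genes at all 4 times.
Log2 fold changes that changed sign were, in the higher-numbered mice, Angptl4 -0.105 and Fabp4 0.145 in eWAT 2 weeks, Gpihbp1 0.091, Slc27a1 -0.208 and Acsl1 -0.0782 in eWAT 6 weeks, Gpihbp1 -0.133 in iWAT obesity, Lmf1 0.0254, Angptl4 -0.162 and Slc27a1 0.0891 in iWAT 2 weeks, Acsl1 -0.0342 in iWAT 6 weeks, Cd36 -0.258 in iWAT 12 weeks. In the lower-numbered mice they were Slc27a1 -0.16 in eWAT 2 weeks, Lmf1 0.0201 in eWAT 6 weeks, Acsl1 0.14 in eWAT 12 weeks, Lpl 0.208 and Cd36 0.0364 in iWAT obesity, Fabp4 -0.168 in iWAT 2 weeks, Angptl4 0.00286 and Fabp4 0.0187 in iWAT 6 weeks, Lpl 0.0601, Gpihbp1 0.139 and Acsl1 0.076 in iWAT 12 weeks. Without the libraries with other-tissue RNA they were Slc27a1 -0.00503 in eWAT 2 weeks, Gpihbp1 0.0176 and Acsl1 -0.0396 in eWAT 6 weeks, Fabp4 -0.11 in iWAT 2 weeks, Gpihbp1 -0.0365 and Acsl1 -0.00135 in iWAT 6 weeks, Cd36 -0.0165 in iWAT 12 weeks, and without the filter Gpihbp1 0.0121 in eWAT 6 weeks. Leaving out single libraries, the values that turned ran for Gpihbp1 in eWAT obesity -0.195 to 0.0774, Slc27a1 in eWAT 2 weeks -0.033 to 0.191, Acsl1 in eWAT 6 weeks -0.0781 to 0.125, Gpihbp1 in eWAT 6 weeks -0.117 to 0.0937, Slc27a1 in eWAT 6 weeks -0.0676 to 0.102, Lmf1 in eWAT 6 weeks -0.141 to 0.021, and for Lpl in iWAT obesity -0.194 to 0.058, Cd36 in iWAT obesity -0.212 to 0.0147, Gpihbp1 in iWAT obesity -0.238 to 0.156, Lmf1 in iWAT 2 weeks -0.0914 to 0.0169, Acsl1 in iWAT 6 weeks -0.0100 to 0.174, Cd36 in iWAT 12 weeks -0.0932 to 0.109. The shallowest library was regression replicate 2 in eWAT at 2 weeks; Lmf1, the lowest of the 8 genes, rests on the fewest counts. The alternatives for the change contrast, the series difference and the lean depot difference without mouse block were added after seeing the data.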

Other observations

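Pathway genes outside the 8 differed between the depots in their response at 2 weeks of regression, where 5 of 52 had a higher and 10 a lower response in eWAT than in iWAT (8.42% of all genes called). Apoc3, the lipase inhibitor, had the largest positive difference among those named (2.32 ± 0.69, adjusted p = 0.0284), followed by Acss1, a mitochondrial acetyl-CoA synthetase (1.02 ± 0.19, adjusted p = 0.00101), Pltp (0.998 ± 0.23, adjusted p = 0.00538) and Fabp5 (0.73 ± 0.23, adjusted p = 0.0386). Cav1 (-0.83 ± 0.20, adjusted p = 0.00851), Cebpa (-0.73 ± 0.20, adjusted p = 0.0156), Pcsk6, a proprotein convertase (-0.70 ± 0.19, adjusted p = 0.0159) and Pparg (-0.61 ± 0.17, adjusted p = 0.0197) were lower in eWAT relative to iWAT.
In iWAT, 4 pathway genes moved up and 2 moved down, relative to lean mice, from obesity to 12 weeks (4.85% of all genes called). Slc27a2 (5.04 ± 1.27, adjusted p = 0.0134), Gm6484, the older symbol of Angptl8 (3.99 ± 1.06, adjusted p = 0.0193), Apoc3 (2.96 ± 0.73, adjusted p = 0.0115) and Pparg (1.22 ± 0.29, adjusted p = 0.00854) moved up. Pltp (-0.99 ± 0.28, adjusted p = 0.0271) and Hspg2, the proteoglycan perlecan (-0.74 ± 0.22, adjusted p = 0.039), moved down. All p-values are from edgeR's quasi-likelihood test, adjusted over all genes.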
